A study of Mus musculus with 14 samples.

Results

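The 55 genes described here encode machinery of dividing cells, 23 of them for DNA replication and the G1-to-S transition and 32 for mitosis. They are listed by name, and all 55 were found by gene symbol among the 16821 genes of one table of mouse liver tumour RNA-seq and the 16095 genes of another. The tumours were MYC-driven hepatocellular carcinomas, liver cancers made in mice by the MYC oncogene, and every tumour, controls included, carried MYC. The first table held 4 control tumours with a guide to GFP (sgGFP), 3 tumours whose guide cut Cul3 (sgCul3) and 3 whose guide cut Keap1 (sgKeap1). The second table held 2 tumours edited in the ETGE motif of NRF2, the stretch through which KEAP1 holds that protein (sgNrf2 A and B), beside 2 control tumours (control A and B) that the labels call repeats of the second and the fourth sgGFP tumour. KEAP1 and CUL3 form a ubiquitin ligase that marks the transcription factor NRF2 for breakdown, so all 3 edits were designed to leave NRF2 active, and the series compared MYC tumours with and without that activation. The labels number separate tumours and do not name animals, strain, age or sex, nor do they say how MYC or Cas9 was delivered. The p-values below therefore measure the spread between these tumours.

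Before a cell copies its DNA, cyclin E with CDK2 releases E2F transcription factors, CDC6 and CDT1 load the ring of MCM2 to MCM7 onto replication origins, and CDC45 with the GINS complex turns that ring into the moving helicase. PCNA then clamps polymerase to DNA, while ribonucleotide reductase, thymidylate synthase and thymidine kinase supply the building blocks. Later, cyclin B with CDK1 starts mitosis, and Aurora and Polo kinases, the spindle checkpoint and motor proteins part the chromosomes. A normal adult hepatocyte rarely divides and holds little of either set of transcripts, while MYC is known to push cells into the cycle.

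Values are scaled read counts: reads per gene, divided by the submitters' size factor for each library, with the 1 that the first table adds to every entry taken off again. Lists of values follow the numbering of the tumours. Each comparison was fitted with limma across all genes on log2(deposited value + 1), and a gene counts as called where its Benjamini-Hochberg adjusted p, over all genes tested, was under 0.05. The 2 tables were scaled separately, so a level in one was never tested against a level in the other. All 55 genes passed the filter of a mean of at least 10, in each table. In whole tumours, fewer cells of a type and less RNA per cell cannot be told apart.

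Libraries of the first table held 6333025 to 12008223 reads on genes, and those of the second 17819333 to 20848578. Where a range follows an adjusted p in brackets, it is that p over the alternative settings. Keap1 transcript fell in sgKeap1 tumours (-0.77 ± 0.21, log2 ± SE, adjusted p = 0.0485, 0.0167 to 0.16), a call lost with any 1 of sgGFP tumours 1 to 4 and sgKeap1 tumours 2 and 3 left out (adjusted p of 0.0676 to 0.16). Cul3 transcript in sgCul3 tumours was at -1.70 ± 0.39 and did not pass (adjusted p = 0.0509, 0.00493 to 0.13). Nfe2l2, which encodes NRF2, and Myc did not pass in any comparison. Myc stood at 6758, 3712, 4707 and 4060 scaled counts in sgGFP and 2277, 3066 and 3064 in sgCul3 tumours, without overlap. In sgKeap1 tumours it stood at 6146, 1018 and 4661, with sgKeap1 tumour 2 the lowest of its table. Controls A and B were at 9034 and 6046 and sgNrf2 tumours at 6756 and 7475. The part of Myc level in the results below was not tested. Ccnd1, the gene of the G1 cyclin D1, rose by 3.41 on the log2 scale with sgCul3 (adjusted p = 0.0102, 7.6e-10 to 0.037), 4.42 with sgKeap1 (0.00101, 1.2e-13 to 0.00667) and 4.60 with sgNrf2 (0.0291, 1.5e-20 to 0.1, lost with sgNrf2 A or B left out). The hepatocyte marker Alb was present in every library, at 27498 scaled counts or more. Markers of erythroid cells, whose precursors also divide, moved with the groups: 12 of 18 tested were called lower with sgCul3, 14 of 18 with sgKeap1 and 13 of 19 with sgNrf2. Their summed level was 5416 to 15350.5 in sgGFP, 424 to 11356 in sgCul3, 1971 to 2180.4 in sgKeap1, 18178 to 19900.4 in control and 973 to 2018 in sgNrf2 tumours, and Ermap, Tspo2, Rhag, Rhd, Kel and Hemgn stood at 0 in all 3 sgKeap1 tumours. Neutrophil markers were called lower in 0 of 14, 9 of 14 and 3 of 14 with sgCul3, sgKeap1 and sgNrf2, with sums of 2382 to 7406 in sgGFP, 1447 to 11399 in sgCul3, 579.7 to 3084 in sgKeap1, 13029 to 16083 in control and 2848 to 6651 in sgNrf2 tumours. Summed levels of other marker lists also lay apart: endothelial markers were at 908 to 1517 in sgCul3 against 1605 to 1982 in sgGFP tumours (1 of 13 called lower). In sgNrf2 against control tumours, hepatocyte markers were at 439695 to 512072 against 632240 to 964680 (0 of 16 called), stellate and fibroblast markers at 5400.0 to 7659.9 against 2999 to 3431 (2 of 10 called higher), endothelial markers at 4411 to 4644 against 2845 to 3295 (1 of 13 called higher) and lymphocyte markers at 316 to 392 against 101 to 213 (0 of 10 called). With sgKeap1, 2 of 7 cholangiocyte markers were called higher and 1 lower, and 1 of 12 stellate and fibroblast markers higher, with sums that overlapped those of sgGFP tumours. Macrophage marker sums differed among controls: 10660, 10109, 2326 and 1693 in sgGFP tumours 1 to 4, and 21335 and 3348 in control A and B. Hepatocyte marker sums ran the other way in the sgGFP tumours, at 187951, 284877, 413893 and 441684. With sgNrf2, 2 of 12 macrophage markers were called lower, at sums of 15058 and 15754. The part of these cells in the results below was not tested.

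Of the 55 members, 45 had a RefSeq promoter of mouse build GRCm38.p6 (not matched were Kif20a, Foxm1, Gins2, Tpx2, Ccna2, Gins1, Aurkb, Cdc25c, Ccne2 and Mcm4), and 5 motifs were searched on both strands from 250 bases before to 50 bases after the start. The CCAAT box (CCAAT) and the CHR (TTTGAA) are known from promoters switched on late in the cycle, and the E2F motif (any of TTTCCCGC, TTTCGCGC, TTTGCCGC and TTTGGCGC) from promoters switched on before S phase. Of the 27 mitosis promoters, of 26 genes, 85.2% held CCAAT, 74.1% TTTGAA and 66.7% both, against 37.4%, 17.9% and 6.95% of the 32851 promoters of all genes. Of the 21 replication promoters, of 19 genes, 66.7% held CCAAT, 14.3% TTTGAA and 38.1% an E2F motif, against 3.70% of mitosis promoters and 2.26% of all. The E-box CACGTG, which MYC with MAX can bind, was in 7.41% of mitosis, 4.76% of replication and 7.15% of all promoters. The antioxidant response element TGACNNNGC, the motif NRF2 with small MAF proteins can bind, was in 18.5%, 14.3% and 12.4%. These are letter matches and not measured binding, and CCAAT and the other motifs may overlap.

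Stretches of 5 promoters are shown, all of members described below. Cdk1, Ccnf and Mki67, for mitosis, had estimates of different sign in sgKeap1 tumours and all hold CCAAT and TTTGAA. Ccne1 and Rrm2 encode the S-phase cyclin E1 and the small subunit of ribonucleotide reductase. Whether the motifs go with the estimates was not tested. Capitals mark matches to the 5 motifs on either strand, so that ATTGG is CCAAT and GCGGGGTCA the response element read from the other strand. Each is written 5′ to 3′ in the direction of the gene, at chr10:69352939-69353162 (minus strand), chr17:24251485-24251659 (minus), chr7:135716380-135716629 (minus), chr7:38107535-38107740 (minus) and chr12:24708004-24708240 (plus). Each stretch begins 250 bases before the RefSeq start and ends at that start or at the start of the GENCODE gene model, whichever comes first, which left 26 bases to the RefSeq start for Cdk1, 75 for Ccnf, 0 for Mki67, 44 for Ccne1 and 13 for Rrm2.
Cdk1: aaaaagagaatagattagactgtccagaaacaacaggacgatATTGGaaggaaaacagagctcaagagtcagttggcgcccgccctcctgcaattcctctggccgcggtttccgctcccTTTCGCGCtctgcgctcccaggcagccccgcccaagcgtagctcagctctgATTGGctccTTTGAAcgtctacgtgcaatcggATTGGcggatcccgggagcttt
Ccnf: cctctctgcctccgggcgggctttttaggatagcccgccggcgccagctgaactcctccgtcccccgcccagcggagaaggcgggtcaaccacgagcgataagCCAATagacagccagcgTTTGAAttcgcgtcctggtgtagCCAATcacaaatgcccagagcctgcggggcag
Mki67: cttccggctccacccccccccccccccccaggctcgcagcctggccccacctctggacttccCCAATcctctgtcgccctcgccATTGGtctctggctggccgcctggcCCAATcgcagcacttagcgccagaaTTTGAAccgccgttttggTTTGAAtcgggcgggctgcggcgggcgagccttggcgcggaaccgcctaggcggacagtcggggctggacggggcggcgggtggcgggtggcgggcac
Ccne1: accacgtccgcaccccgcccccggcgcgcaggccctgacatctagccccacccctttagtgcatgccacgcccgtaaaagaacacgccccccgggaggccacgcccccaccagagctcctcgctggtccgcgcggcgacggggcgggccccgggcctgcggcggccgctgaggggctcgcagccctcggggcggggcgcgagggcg
Rrm2: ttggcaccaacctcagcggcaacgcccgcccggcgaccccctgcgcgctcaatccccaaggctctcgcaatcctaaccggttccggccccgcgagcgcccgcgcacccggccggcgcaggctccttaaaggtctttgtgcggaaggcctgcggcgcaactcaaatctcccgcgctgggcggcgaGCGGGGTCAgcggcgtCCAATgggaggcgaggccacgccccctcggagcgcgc
The Cdk1 stretch held CCAAT matches that began 208, 80 and 48 bases before the start, a TTTGAA match at 71 and the E2F motif TTTCGCGC at 131. The Mki67 stretch held TTTGAA at 116 and 98 bases before the start, and that of Ccnf at 130. Further TTTGAA matches lay nearer the start than the printed stretches reach, at 15 bases for Cdk1 and 14 for Ccnf. In the stretch of Ccne1 none of the 5 motifs was matched.

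Per kilobase of exon, mean levels in the sgGFP tumours ran from 26.9 scaled counts for E2f2, 27.7 for Brca1 and 29.4 for Kif23 to 579.7 for Cdc20, the activator of the anaphase-promoting complex, 596 for the B-type cyclin Ccnb2 and 802 for Rrm2. No member was at 0 in any library. The sgGFP tumours differed among themselves: in sgGFP tumour 1, 20 of 23 replication members and 32 of 32 mitosis members stood above the sgGFP mean, and in sgGFP tumour 4 only 3 of 23 and 5 of 32 did. On the log2 scale, the median replication member deviated from the sgGFP mean by 0.39, 0.13, -0.12 and -0.42 in the 4 sgGFP tumours, and by 0.36, 0.45 and 0.30 in sgCul3 and 0.17, 0.05 and 0.45 in sgKeap1 tumours. The median mitosis member deviated by 0.41, -0.14, -0.01 and -0.24 in sgGFP, by 0.47, 0.15 and 0.32 in sgCul3, and by -0.15, -0.49 and -0.01 in sgKeap1 tumours. Single sgGFP tumours thus spanned both signs on either set, and sgGFP tumour 1 stood as high as most sgCul3 tumours.

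**Figure D1:**
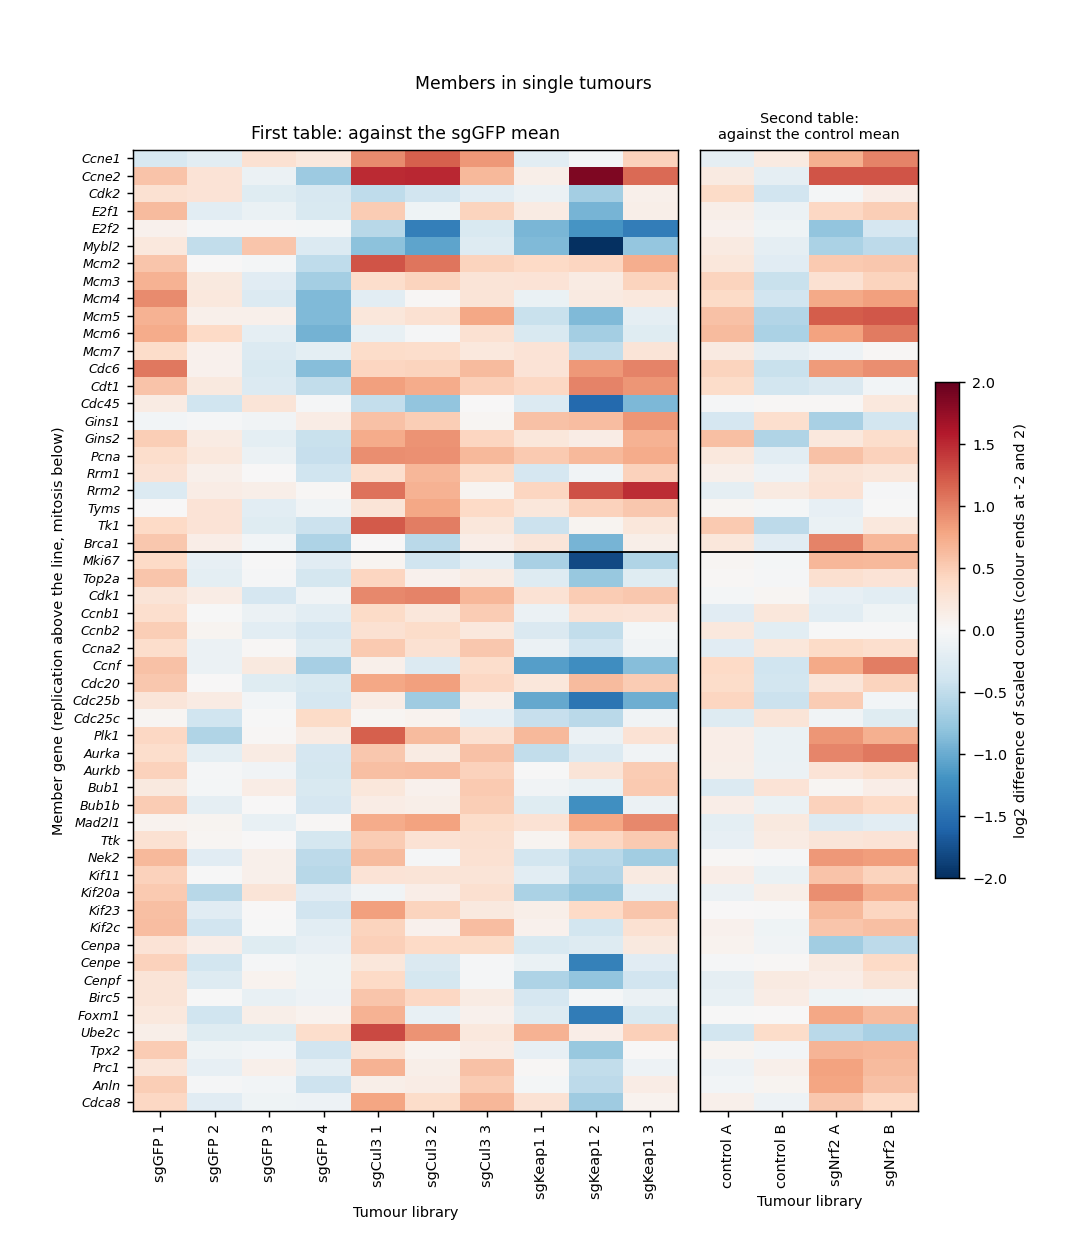
Log2 difference of each member (rows, replication above mitosis) in each tumour (columns) from the mean of the sgGFP tumours in the first table and of the control tumours in the second, with colours ending at -2 and 2. The column of sgGFP tumour 1 is above the mean for 20 of 23 replication and 32 of 32 mitosis members, and that of sgGFP tumour 4 for 3 of 23 and 5 of 32.

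**Figure D2:**
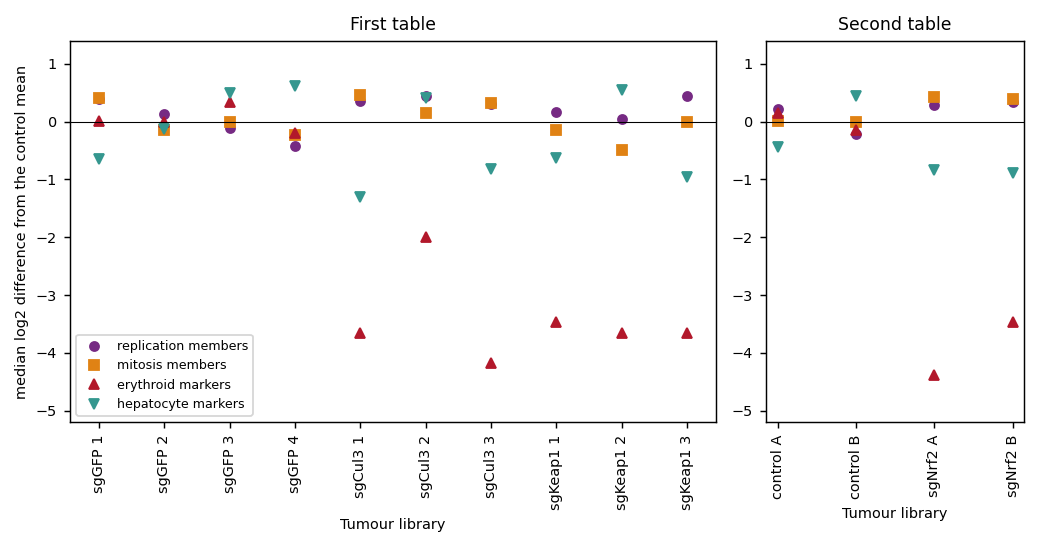
Median log2 difference per tumour of the replication members, the mitosis members, the erythroid markers and the hepatocyte markers, against the sgGFP mean (first table) or the control mean (second table). Points are single tumours, and the replication medians of the sgGFP tumours run from -0.42 to 0.39.

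With sgCul3, cyclin E1 (Ccne1) and the mitotic kinase gene Cdk1 were higher, and most members had estimates above 0 without passing. These 2 of 55 members called higher are 3.64%, where 1.35% of all 13045 genes were called higher, and 0 were called lower, where 0.851% were. Before adjustment, 17 members (30.9%) were higher and 1 (1.82%) lower at p under 0.05, where 9.07% and 8.11% of all genes were. edgeR's quasi-likelihood test on recovered reads called 0 higher and 0 lower, and DESeq2 called 4 higher (Ccne1, Mcm2, Pcna and Cdk1) and 0 lower. Of all genes, DESeq2 called 3.67% higher and 3.43% lower. All 3 sgCul3 tumours stood above all 4 sgGFP tumours for 8 members, 14.5%, where 8.71% of all genes did, and below for 1, E2f2, where 7.54% did. As log2 fold changes, 46 of 55 members were above 0 (18 of 23 replication, 28 of 32 mitosis), against 51.1% of all genes. The median was 0.44 for replication and 0.34 for mitosis members, against 0.01 for all genes (0.25 and 0.24 without sgGFP tumour 4, the lowest control).

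Ccne1 stood at 479, 518, 741 and 693 scaled counts in the sgGFP tumours and at 1149.5, 1371 and 1089 in the sgCul3 tumours. Every sgCul3 tumour was above every sgGFP tumour, and Ccne1 rose by 1.0 ± 0.23 (log2 ± SE, adjusted p = 0.0484). The call was lost with any 1 of sgGFP tumours 1 to 4 and sgCul3 tumours 1 to 3 left out (adjusted p of 0.063 to 0.17), and with the tumour number as a block, at 0.0528. Cdk1, the kinase that starts mitosis, stood at 2244, 2075, 1484 and 1776 in sgGFP and at 3629.6, 3730.1 and 2961 in sgCul3 tumours, again with no overlap. Cdk1 rose by 0.87 ± 0.20 (adjusted p = 0.0484), and its call was lost with any 1 of sgGFP tumours 1 to 4 and sgCul3 tumours 1 and 2 left out (adjusted p of 0.0534 to 0.21) and with the block, at 0.0888. Over all alternatives the adjusted p ran from 0.00382 to 0.17 for Ccne1 and from 0.00186 to 0.21 for Cdk1.

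Among members that did not pass with sgCul3, the polymerase clamp Pcna came nearest in the replication set. It stood at 1098, 997, 790.0 and 624 scaled counts in sgGFP and at 1629, 1615 and 1345 in sgCul3 tumours, with no overlap and a log2 fold change of 0.83 ± 0.21 (adjusted p = 0.0729). Next came Mcm2, a subunit of the helicase ring, at 1455, 1003, 964 and 695 against 2383, 2098 and 1352 (0.93 ± 0.27, adjusted p = 0.11), where sgCul3 tumour 3 lay below sgGFP tumour 1. Ccne2, the other E-type cyclin gene, had the highest estimate, 1.21 ± 0.43 (adjusted p = 0.18), from 198, 161, 123 and 79.7 in sgGFP to 380.0, 381 and 209 in sgCul3 tumours. Its lowest sgCul3 value lay just above the highest sgGFP value. Thymidine kinase, Tk1, stood at 1067, 986, 684 and 606 and 1898, 1659.9 and 952 (0.83 ± 0.29, adjusted p = 0.18), with overlap. In the mitosis set, the checkpoint gene Mad2l1 stood at 923, 909, 787 and 894 in sgGFP and 1467, 1532 and 1129 in sgCul3 tumours (0.64 ± 0.20, adjusted p = 0.13), and did not overlap. Ube2c, the ubiquitin-conjugating enzyme of the anaphase-promoting complex, stood at 1349, 1047, 1047 and 1585 against 3091, 2299.7 and 1438 (0.81 ± 0.27, adjusted p = 0.16). There sgCul3 tumour 3 lay below sgGFP tumour 4. For Cdc20 the values were 1538, 1056, 886 and 852 and 1803, 1857 and 1408 (0.67 ± 0.23, adjusted p = 0.17), with sgGFP tumour 1 above sgCul3 tumour 3. Aurkb, the Aurora kinase of the chromosomal passenger complex, stood at 863, 618, 596 and 492 against 951, 964 and 863 (0.56 ± 0.21, adjusted p = 0.22), with sgCul3 tumour 3 level with sgGFP tumour 1.

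With sgKeap1, 1 of 55 members was called higher, the replication gene Gins1, and 3 lower, Cdc25b, E2f2 and Ccnf, where 4.45% of all genes were called higher and 3.37% lower. They make up 1.82% and 5.45% of the members, shares near that background. Before adjustment 7 members (12.7%) were higher and 7 lower at p under 0.05, where 14.9% and 14.3% of all genes were. edgeR called 2 higher and 3 lower, where it called 4.68% and 2.68% of all genes. DESeq2 called 3 higher and 5 lower, where it called 9.05% and 7.37% of all genes. Groups did not overlap for 5 members that were higher (Gins1, Rrm2, Mad2l1, Pcna and Cdk1), 9.09% where 13.1% of all genes were, and for 6 that were lower (Cdc25b, E2f2, Ccnf, Mki67, Mybl2 and Cenpf), 10.9% where 12.6% were. The median log2 fold change was 0.07 for replication and -0.19 for mitosis members, with 14 of 23 and 11 of 32 above 0 (all genes: -0.01, with 49.5% above 0). The replication median changed sign, to -0.05 without sgGFP tumour 4 and to -0.11 without sgKeap1 tumour 3. With libraries scaled to equal totals it was -0.13 and that of all genes -0.20, so that relative to all genes it stayed at 0.07, and the mitosis median at -0.19 against -0.18. The mitosis median was -0.08 without sgGFP tumour 1 and -0.06 without sgKeap1 tumour 2.

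Gins1, a subunit of the GINS complex of the helicase, stood at 347, 353, 342 and 397 scaled counts in sgGFP and at 542, 553 and 664 in sgKeap1 tumours. All 3 sgKeap1 tumours were above all sgGFP tumours, and Gins1 rose by 0.70 ± 0.19 (adjusted p = 0.0462). Equal totals took the adjusted p to 0.20, and the call was also lost with any 1 of sgGFP tumours 1 to 4 and sgKeap1 tumours 2 and 3 left out (adjusted p of 0.0559 to 0.15), in a range of 0.00853 to 0.2 over the alternatives. No filter, quantile normalization, the tumour number as a block and only the 2 groups compared ended the Gins1 call as well. E2f2, a transcription factor gene of the E2F family, stood at 139, 129.7, 129 and 128 in sgGFP and at 68.6, 56.8 and 49.1 in sgKeap1 tumours, with no overlap, and fell (-1.16 ± 0.29, adjusted p = 0.0358). The call was lost with any 1 of sgGFP tumours 1 to 4 and sgKeap1 tumours 2 and 3 left out (adjusted p of 0.0563 to 0.12) and ran from 0.005 to 0.12.

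Cdc25b, the gene of a phosphatase that activates CDK1, stood at 209, 199, 170.1 and 139.6 in sgGFP and at 85.8, 62.8 and 89.5 in sgKeap1 tumours. The groups did not overlap and Cdc25b fell (-1.16 ± 0.28, adjusted p = 0.0341), a call that was lost with any 1 of sgGFP tumours 1 to 3 and sgKeap1 tumours 2 and 3 left out (adjusted p of 0.0696 to 0.13) and ran from 0.00378 to 0.13 over the alternatives. Ccnf, cyclin F, which is the substrate-binding part of a ubiquitin ligase, stood at 706, 434, 538 and 294 in sgGFP and at 218, 197 and 258 in sgKeap1 tumours. Each sgKeap1 tumour was below sgGFP tumour 4, the lowest control, and Ccnf fell (-1.07 ± 0.29, adjusted p = 0.0456). Its call was lost with any 1 of sgGFP tumours 1 to 3 and sgKeap1 tumours 1 to 3 left out (adjusted p of 0.0677 to 0.15) and ran from 0.00604 to 0.15. Without sgKeap1 tumour 1, 4 members were called higher and 4 lower, where 6.34% and 5.28% of all genes were. The counts were 0 and 0 without sgGFP tumour 1, 2 or 3 or sgKeap1 tumour 2 or 3. They were 0 and 2 without sgGFP tumour 4, where 3.99% and 2.67% of all genes were called.

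Of the S-phase genes that did not pass with sgKeap1, Rrm2 and Mybl2 pointed apart. Rrm2 stood at 1826, 2439.6, 2394 and 2235 in sgGFP and at 2972, 5319 and 6183 in sgKeap1 tumours, all of them above every sgGFP value (1.06 ± 0.30, adjusted p = 0.0548). Mybl2, the gene of the B-MYB factor, which acts with the MuvB proteins on late cell cycle promoters, stood at 422, 257, 531 and 301 against 195, 50.7 and 212 (-1.48 ± 0.46, adjusted p = 0.0714), with sgKeap1 tumour 2 far the lowest. DESeq2 and limma with the tumour number as a block did call Mybl2 lower. Pcna was at 1227, 1342 and 1436 in the sgKeap1 tumours, above all 4 sgGFP values given before (0.64 ± 0.21, adjusted p = 0.0826). In mitosis, Mki67, the gene of the proliferation antigen Ki-67 that coats mitotic chromosomes, stood at 2324, 1566, 1747 and 1504 in sgGFP and at 1117, 503 and 1163 in sgKeap1 tumours (-1.02 ± 0.29, adjusted p = 0.0575). Every sgKeap1 tumour was below every sgGFP tumour, sgKeap1 tumour 2 by the widest gap. That library was also the one in which the 10 most counted genes took 24.5% of reads, against 8.10% to 18.0% in the others of its table, and whose hepatocyte marker sum was 1300430, against 187951 to 441684 in sgGFP tumours. The part of that library's make-up in the Mki67 value was not tested, and without that library the groups still did not overlap. Mad2l1 went the other way, at 1075, 1492 and 1706 in sgKeap1 tumours (0.67 ± 0.20, adjusted p = 0.0615), above every sgGFP tumour. Cenpf, a kinetochore gene, stood at 546, 381, 476 and 429.6 against 294, 261 and 346 (-0.60 ± 0.22, adjusted p = 0.11), with no overlap.

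**Figure D3:**
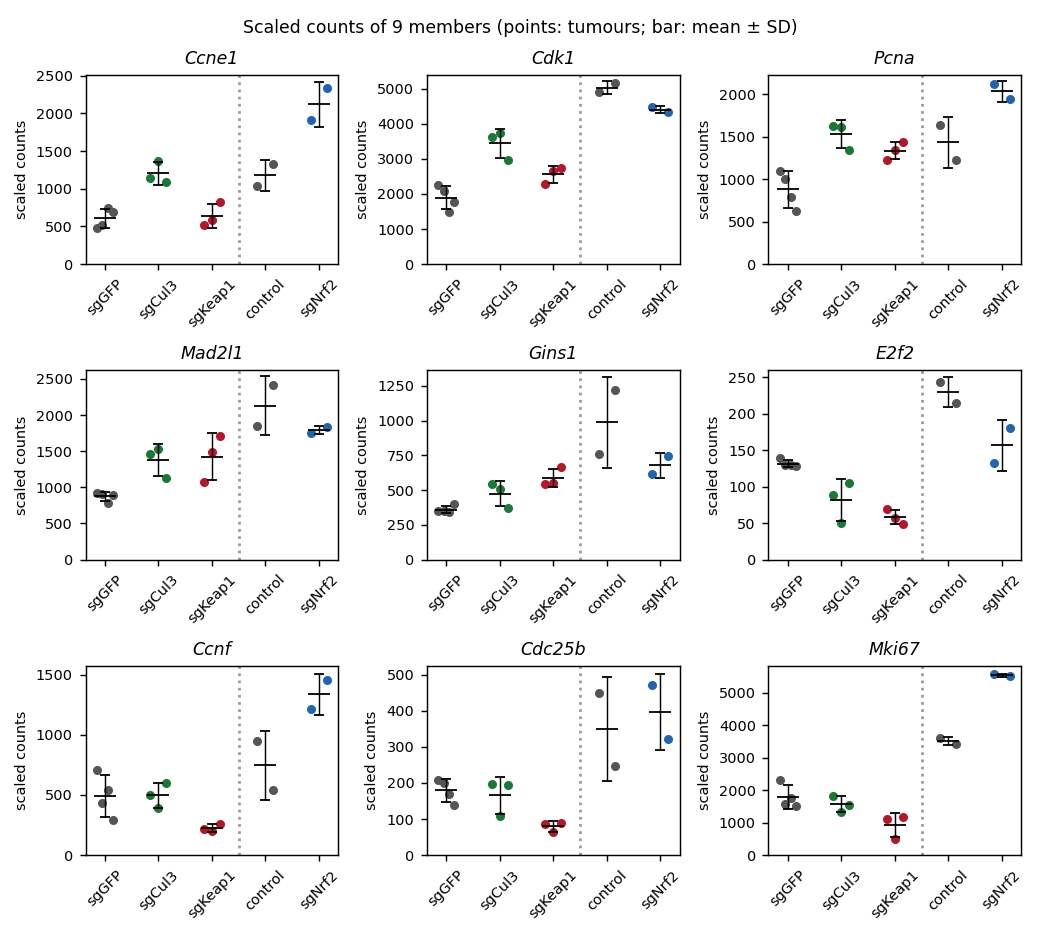
Scaled counts (linear axis from 0) of 9 members in every tumour, by group, with the bar at the group mean ± SD and a dotted line between the 2 separately scaled tables. Cdk1 and Mad2l1 are higher in all sgCul3 and sgKeap1 tumours than in all sgGFP tumours, and Ccnf, Cdc25b and Mki67 are lower in all sgKeap1 tumours.

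With both ligase guides in 1 group, 6 tumours against the same 4 sgGFP tumours, Pcna, Cdk1 and Mad2l1 were called higher and E2f2 lower. The 3 higher are 5.45% of the members and the 1 lower 1.82%, where 4.37% and 3.19% of all genes were called. This comparison shares its tumours with the 2 above and is no separate evidence. Pcna rose by 0.73 ± 0.18 (adjusted p = 0.0329), Cdk1 by 0.66 ± 0.17 (0.0378) and Mad2l1 by 0.65 ± 0.17 (0.0409), while E2f2 fell (-0.95 ± 0.24, adjusted p = 0.0392). For each of these 4 genes no tumour of the 6 overlapped the sgGFP tumours, where 5.13% of all genes did so on the higher and 4.1% on the lower side. Before adjustment 14 (25.5%) were higher and 5 (9.09%) lower at p under 0.05, where 14.2% and 12.8% of all genes were. edgeR called 2 and 1, where it called 4.16% and 3.63% of all genes. DESeq2 called 8 and 2, where it called 8.47% and 7.26% of all genes. With the tumour number as a block none of the 4 was called, at adjusted p of 0.0632 for Pcna, 0.0642 for Cdk1, 0.0686 for Mad2l1 and 0.0574 for E2f2, and Mybl2 and Ccnf were called lower instead. The Pcna call was lost with any 1 of sgGFP tumours 3 and 4, sgCul3 tumours 1 and 2 and sgKeap1 tumours 2 and 3 left out (adjusted p of 0.0537 to 0.11). That of Cdk1 was lost with any 1 of sgGFP tumours 2 to 4, sgCul3 tumours 1 and 2 and sgKeap1 tumours 2 and 3 left out (adjusted p of 0.0599 to 0.13). Mad2l1 lost its call with any 1 of sgGFP tumours 1 to 4, sgCul3 tumours 1 and 2 and sgKeap1 tumours 2 and 3 left out (adjusted p of 0.0678 to 0.13), and E2f2 with the same 8 libraries (adjusted p of 0.0643 to 0.11). Over the alternatives the adjusted p ran from 0.00604 to 0.13 for Pcna, 0.00407 to 0.13 for Cdk1, 0.00523 to 0.13 for Mad2l1 and 0.00571 to 0.11 for E2f2. The number called higher was 5 without sgGFP tumour 1 or sgKeap1 tumour 1, 7 without sgCul3 tumour 3, 1 without sgGFP tumour 2 and 0 without any of the other libraries. Of all genes, 3.07% were called higher without sgGFP tumour 1 and 5.31% without sgKeap1 tumour 1. The share was 6.75% without sgCul3 tumour 3 and 2.91% without sgGFP tumour 2.

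Set directly against sgCul3, the sgKeap1 tumours had lower estimates for 48 of 55 members, 17 of 23 in replication and 31 of 32 in mitosis, with medians of -0.30 and -0.54 against -0.00 for all genes. No member was called higher or lower by limma, where 0.0307% of all genes were in each direction. At an unadjusted p under 0.05, 0 were higher and 19 (34.5%) lower, where 4.86% and 5.22% of all genes were, and edgeR and DESeq2 each called 0. Groups did not overlap for 0 members that were higher, where 7.52% of all genes were, and for 22 that were lower, where 8.24% were. These 22 are 40.0% of the members, and 19 of them were mitosis genes, 59.4% of that set. Genes are not independent and here share the same few tumours, so such counts are no separate results. The members were also chosen with earlier results of these data known. In every comparison, a share above that of all genes is therefore no evidence about the members. Both medians were below 0 under every alternative run, at -0.54 and -0.78 with equal totals, where that of all genes was -0.24 (-0.30 and -0.54 relative to it), and at -0.14 and -0.44 without sgKeap1 tumour 2.

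For Ccne1 the sgKeap1 tumours stood at 513, 579.7 and 823 scaled counts, below the 3 sgCul3 tumours given above and overlapping the sgGFP tumours (-0.93 ± 0.24 against sgCul3, adjusted p = 0.34). Mcm5, a further subunit of the helicase ring, stood at 971, 1021 and 1417 in sgCul3 and at 608, 446 and 729 in sgKeap1 tumours (-0.94 ± 0.35, adjusted p = 0.45), with no overlap. Tk1 stood at 601, 841 and 954 in sgKeap1 tumours (-0.88 ± 0.31, adjusted p = 0.45), where the highest value just passed the lowest sgCul3 value. The large subunit of ribonucleotide reductase, Rrm1, was at 2092, 2613 and 2136 in sgCul3 and 1305, 1567 and 2267 in sgKeap1 tumours (-0.44 ± 0.25, adjusted p = 0.55), and overlapped. Gins1 was the only one of these 5 on the higher side (0.32 ± 0.20, adjusted p = 0.57).

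Among mitosis members the smallest p against sgCul3 was that of Ccnf, at 503, 388 and 599.7 in sgCul3 tumours (-1.13 ± 0.30, adjusted p = 0.36). Cdc25b was at 198, 107 and 193 in sgCul3 tumours (-1.01 ± 0.30, adjusted p = 0.4). Neither overlapped the sgKeap1 values given above. Ccna2, cyclin A2, stood at 2573, 1850.4, 2042 and 1689.7 in sgGFP, 2904, 2479.6 and 2929.8 in sgCul3 and 1854, 1537 and 1909 in sgKeap1 tumours (-0.65 ± 0.21, adjusted p = 0.41). The Aurora kinase gene of the spindle poles, Aurka, stood at 870.3, 598, 768 and 543 in sgGFP, 993, 767 and 1031 in sgCul3 and 485, 566 and 648 in sgKeap1 tumours (-0.71 ± 0.23, adjusted p = 0.41). Prc1, which bundles microtubules at the midzone of the spindle, stood at 752, 562, 679 and 557 in sgGFP, 1028, 689 and 953 in sgCul3 and 644, 450.0 and 590.2 in sgKeap1 tumours (-0.66 ± 0.23, adjusted p = 0.44). In all 3 genes the sgKeap1 tumours lay below the sgCul3 tumours and among or next to the sgGFP tumours.

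**Figure D4:**
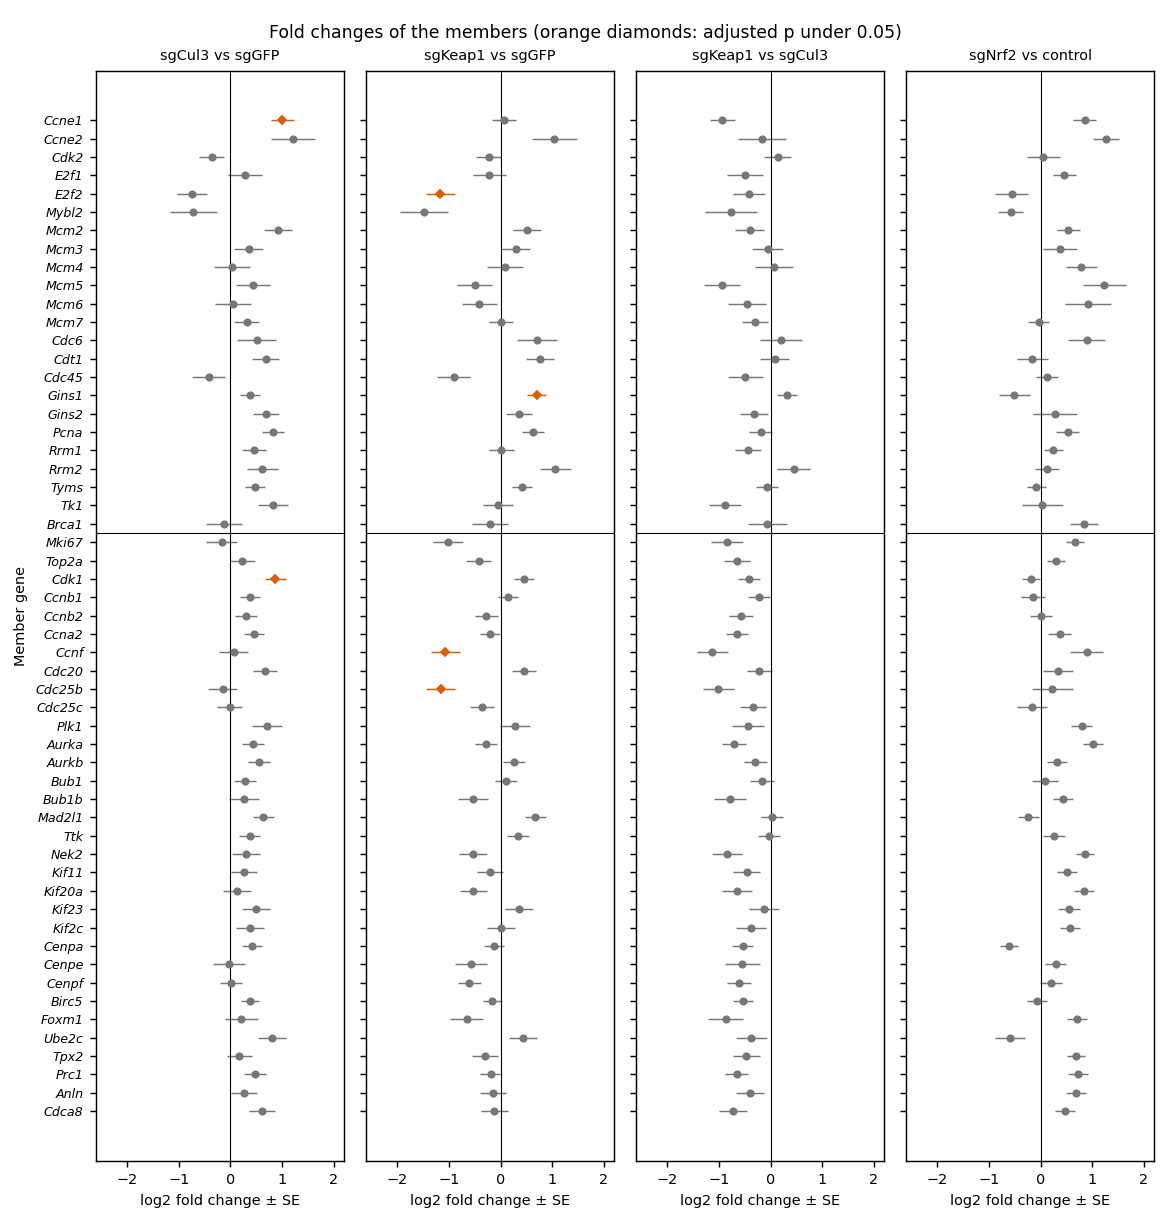
Log2 fold change ± SE of each member in 4 comparisons (sgCul3 and sgKeap1 against sgGFP, sgKeap1 against sgCul3, sgNrf2 against control), with orange diamonds where the adjusted p was under 0.05. Points of the mitosis members lie above 0 for 28 of 32 with sgCul3, below 0 for 31 of 32 in sgKeap1 against sgCul3, and above 0 for 24 of 32 with sgNrf2.

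With sgNrf2 the highest estimates were those of the cyclin gene Ccne2, the helicase gene Mcm5 and the Aurora kinase gene Aurka, at 1.26, 1.23 and 1.02, and none passed. limma called 0 members higher and 0 lower, where 1.9% and 2.51% of all 13989 genes were. Before adjustment 17 members (30.9%) were higher and 1, Cenpa, lower at p under 0.05, where 15.2% and 15.1% of all genes were. edgeR called 0 and 0, and DESeq2 called 9 higher and 0 lower, where it called 8.51% and 10.4% of all genes. Both sgNrf2 tumours stood above both controls for 32 members, 58.2% where 33.3% of all genes did, and below for 7, 12.7% where 30.7% did. As log2 fold changes, 41 of 55 members were above 0 (17 of 23 replication, 24 of 32 mitosis), against 52.1% of all genes, and the medians were 0.28 and 0.35, against 0.04 for all genes. With equal totals 9 members were called higher and 0 lower (all genes 874 and 362, against 266 and 351 as scaled by the submitters), with medians of 0.59 and 0.66 where that of all genes was 0.34. Relative to all genes both medians stayed at 0.24 and 0.31. Without control A, 16 were called higher and 1, Ube2c, lower, where 12.4% and 11.8% of all genes were, with medians of 0.57 and 0.56, and without control B the counts were 0 and 0 and the medians 0.14 and 0.37. With 1 library left in a group, that library is assumed to vary as the other group did. Reads aligned to more than 1 place made up 56.8% and 58.0% of all entries in the controls and 45% and 46.4% in the sgNrf2 tumours. The part of that difference in these values was not tested.

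The member with the smallest p was Aurka, which stood at 1329 and 1106 scaled counts in the controls and at 2392 and 2518 in the sgNrf2 tumours (1.02 ± 0.19, adjusted p = 0.0551, 0.00263 to 0.38 over the alternatives). Nek2, a kinase that splits the centrosomes, stood at 1017 and 992 against 1833 and 1797 (0.85 ± 0.17, adjusted p = 0.0609). For both genes the 2 libraries of a group lay close together and the groups far apart. Kif20a, a motor of the last step of division, stood at 1097 and 1278 against 2252 and 1970.2 (0.83 ± 0.19, adjusted p = 0.0743). Plk1, the Polo kinase, stood at 889.5 and 739 against 1489.8 and 1329 (0.79 ± 0.20, adjusted p = 0.0855). Tpx2, which builds spindle microtubules and activates Aurora A, stood at 1406 and 1293 against 2163 and 2143 (0.67 ± 0.17, adjusted p = 0.0862). In each of these 3 both sgNrf2 tumours were above both controls.

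On the replication side, Ccne2 stood at 247 and 194 in the controls and 525 and 526 in the sgNrf2 tumours (1.26 ± 0.26, adjusted p = 0.0609), and Ccne1 at 1033 and 1325 against 1911 and 2333 (0.85 ± 0.22, adjusted p = 0.0895). The repair gene Brca1 stood at 504 and 369.6 against 864 and 687 (0.83 ± 0.27, adjusted p = 0.12). In these 3 genes the groups did not overlap. Mcm5 stood at 1805 and 794 against 2777 and 2847 (1.23 ± 0.41, adjusted p = 0.13) and Mcm4 at 1395 and 829 against 1811 and 1909 (0.79 ± 0.29, adjusted p = 0.15). For these subunits of the ring the controls themselves lay far apart, control B well below control A.

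As scaled by the submitters, several members that were called with a ligase guide had estimates of the other sign with sgNrf2. For Cdk1 and Mad2l1 that sign rested on the scaling. Equal totals moved the median of all genes with sgNrf2 from 0.04 to 0.34, a shift larger than either estimate. Cdk1 stood at 4901 and 5165 in the controls and 4472 and 4341 in the sgNrf2 tumours (-0.19 ± 0.17, adjusted p = 0.48), and Mad2l1 at 1842 and 2416 against 1752 and 1829 (-0.24 ± 0.21, 0.48). Gins1 stood at 757 and 1219 against 612 and 743 (-0.51 ± 0.30, 0.3), with both sgNrf2 tumours below both controls in all 3 genes. Ccnf stood at 949.9 and 544 against 1214 and 1459 (0.89 ± 0.32, adjusted p = 0.15) and Mki67 at 3613 and 3421 against 5577 and 5515 (0.66 ± 0.17, 0.0887), both higher in both sgNrf2 tumours. Mki67 was not called by the main limma fit with a ligase guide. DESeq2, limma with the tumour number as a block and limma without sgKeap1 tumour 1 called it lower with sgKeap1. E2f2 kept the negative sign, at 244 and 215 against 132 and 181 (-0.56 ± 0.31, 0.28), as did Mybl2, at 607 and 471 against 344 and 372 (-0.58 ± 0.25, 0.19). Cdc25b overlapped, at 451 and 247 against 472 and 323. None of these differences from the ligase guides was tested, since the tables were scaled apart and control A and B repeat sgGFP tumours.

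The remaining regulators of the G1-to-S step and of licensing varied without a call by limma in any comparison. DESeq2 called Mcm2 higher with sgCul3 and with both guides, and Cdt1 with both guides. With 1 library left out, Cdc45 was called lower with sgKeap1 (without its tumour 1), Mcm2 and Cdt1 higher with both guides (without sgGFP tumour 1, and Mcm2 also without sgCul3 tumour 3), and Mcm2 to Mcm6, Cdc6 and Gins2 higher with sgNrf2 (without control A). E2f1, the E2F gene best known for opening S phase, stood at 406, 226, 239 and 212 in sgGFP, 372, 246 and 356 in sgCul3, 293, 136 and 284 in sgKeap1, 409 and 348 in control and 504 and 532 in sgNrf2 tumours. Only the last of these groups lay clear of its control, and sgGFP tumour 1 was above all others of its table. Cdk2, the partner of cyclin E, had log2 fold changes of -0.37, -0.23 and 0.05 with sgCul3, sgKeap1 and sgNrf2, and overlapped in each. For Mcm2 the values were 1310.0, 1338 and 1652 in sgKeap1, 2210.4 and 1616 in control and 2723 and 2745 in sgNrf2 tumours, the last pair above both controls (0.53 ± 0.22, adjusted p = 0.18). The loading factor Cdt1 had 0.68, 0.76 and -0.17, and Cdc6, which loads the ring with it, 0.51, 0.71 and 0.89. Cdc45 was on the lower side with both ligase guides (-0.42 and -0.91) and Gins2 on the higher (0.68 and 0.36). Of the other ring subunits, Mcm3 had 0.35, 0.30 and 0.38, Mcm4 0.02 and 0.09 with the ligase guides, Mcm5 0.44 and -0.50, and Mcm7 0.31, 0.01 and -0.04. The ring subunits therefore did not share a sign with sgKeap1, and none of them was called there.

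At the fork and in nucleotide supply, Pcna stood at 1639 and 1221 in control and 2117 and 1945 in sgNrf2 tumours (0.52 ± 0.22, adjusted p = 0.19), without overlap. Rrm2 stood at 4693, 3589 and 2296 in sgCul3, 4515 and 5764 in control and 6213 and 4995 in sgNrf2 tumours. In sgCul3 tumours it ran from within the sgGFP range to about the level of the sgKeap1 tumours (0.61 ± 0.30, adjusted p = 0.33). The thymidylate synthase gene Tyms had log2 fold changes of 0.48, 0.41 and -0.08, and Tk1 of -0.05 with sgKeap1 and 0.03 with sgNrf2. Rrm1 had 0.02 with sgKeap1 and 0.25 with sgNrf2, and Brca1 -0.13 and -0.19 with the ligase guides. None of these values passed by limma. Rrm2 was called higher with sgKeap1 by edgeR, DESeq2 and limma without sgKeap1 tumour 1, and Pcna with sgNrf2 without control A.

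In mitosis, Top2a, the topoisomerase that untangles chromosomes, stood at 2782, 1663, 1867 and 1491 in sgGFP, 2557, 2006 and 2121 in sgCul3, 1584, 1115 and 1595 in sgKeap1, 3794 and 3684 in control and 4657 and 4504 in sgNrf2 tumours. The sgKeap1 tumours lay below the sgCul3 tumours without overlap, both groups overlapped sgGFP, and sgNrf2 was above control (0.29 ± 0.17, adjusted p = 0.3). Ccnb1, the cyclin that activates CDK1, stood at 620.0, 492, 453 and 426 in sgGFP, 645, 575 and 704 in sgCul3, 453, 600.0 and 599 in sgKeap1, 735 and 1007 in control and 742 and 809 in sgNrf2 tumours. All groups of a table overlapped for Ccnb1, the cyclin whose kinase, Cdk1, was called higher with sgCul3. Foxm1, the transcription factor of the G2 and mitosis genes, stood at 408, 266, 382 and 371 in sgGFP, 569, 319 and 375 in sgCul3, 293, 132 and 286 in sgKeap1, 552 and 556 in control and 949 and 859 in sgNrf2 tumours. Its sgKeap1 values overlapped the lower end of the sgGFP range, with sgKeap1 tumour 2 the lowest of the table, and its sgNrf2 values were above both controls (0.70 ± 0.20, adjusted p = 0.0965). Mki67 stood at 1829, 1329 and 1559 in sgCul3 tumours, overlapping the sgGFP tumours (-0.17 ± 0.29, adjusted p = 0.81), and Cdk1 at 2292, 2659 and 2730.2 in sgKeap1 tumours, above all sgGFP tumours (0.45 ± 0.20, adjusted p = 0.16).

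The other mitosis members had no call by limma in any comparison. With sgNrf2, DESeq2 called Plk1 higher, equal totals Anln, and limma without control A Plk1 and Kif11. Among kinases and their cyclins, Ccnb2 had log2 fold changes of 0.29, -0.27 and -0.00 with sgCul3, sgKeap1 and sgNrf2, Plk1 0.71 and 0.27 with the ligase guides and the phosphatase gene Cdc25c -0.02, -0.36 and -0.16. The checkpoint kinase genes Bub1, Bub1b and Ttk had 0.28, 0.25 and 0.37 with sgCul3 and 0.11, -0.53 and 0.34 with sgKeap1. Of the kinetochore genes, Cenpa, the histone variant of centromeres, stood at 2246 and 2048 in control and 1328 and 1484 in sgNrf2 tumours, below without overlap (-0.61 ± 0.18, adjusted p = 0.11), while with sgCul3 all 3 tumours were above sgGFP (0.42). Cenpe, a kinetochore motor, had -0.03, -0.57 and 0.29. The motor genes Kif11, Kif23 and Kif2c had 0.51, 0.54 and 0.57 with sgNrf2, each with both tumours above both controls, and -0.21, 0.36 and 0.01 with sgKeap1. Birc5 and Cdca8, which encode parts of the chromosomal passenger complex, had 0.38 and 0.61 with sgCul3, -0.16 and -0.12 with sgKeap1, and -0.07 and 0.47 with sgNrf2. Anln, a scaffold of the cleavage furrow, had 0.25, -0.14 and 0.69.

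Exons of 19 members overlap those of another gene, such as Cdc25b with Spef1, Ccne2 with Ints8 and Ube2c with Tnnc2, mostly on the opposite strand, and whether counting used the strand is not given in the sources used here. Reads of such pairs cannot be told apart. Pcna, Tyms, Ccnb1 and Ccnb2 have named pseudogene copies that could share their reads.

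Beyond the members, 59 other genes of replication, 65 of mitosis and 25 regulators were listed, and all were tested. The shares of all genes given above apply to them too: 1.35% called higher and 0.851% lower with sgCul3, 4.45% and 3.37% with sgKeap1, and 1.9% and 2.51% with sgNrf2. By DESeq2 these shares were 3.67% and 3.43% with sgCul3, and 8.51% and 10.4% with sgNrf2. With sgCul3, 0 of 59 and 0 of 65 were called in either direction by limma (at an unadjusted p under 0.05, 22 and 14 higher and 0 lower, where 9.07% and 8.11% of all genes were; edgeR 0 and 0, DESeq2 2 and 3 higher), with medians of 0.42 and 0.28. With sgKeap1, 2 of 59 were called higher and 0 lower, at a median of 0.16, and 2 of 65 higher and 1 lower, at a median of 0.05. Rpa3, a subunit of the single-strand binding protein RPA, rose by 2.04 ± 0.46 (adjusted p = 0.0237, 0.00015 to 0.1), and Orc4, of the origin recognition complex, by 1.09 ± 0.24 (0.0245, 0.000881 to 0.1). Ect2, an activator of cytokinesis, rose by 1.49 ± 0.34 (adjusted p = 0.0285, 0.000211 to 0.12) and Ndc80, of the outer kinetochore, by 0.97 ± 0.26 (0.0442, 0.0103 to 0.14), while Cit, citron kinase, fell (-1.76 ± 0.44, adjusted p = 0.0379, 0.00424 to 0.13). The Rpa3 and Orc4 calls were each lost with any 1 of sgGFP tumours 1 and 3 and sgKeap1 tumours 2 and 3 left out, that of Ect2 with any 1 of sgGFP tumours 2 to 4 and sgKeap1 tumours 2 and 3 left out (adjusted p of 0.0541 to 0.12), that of Ndc80 with any 1 of sgGFP tumours 2 to 4 and sgKeap1 tumours 1 to 3 left out (adjusted p of 0.0505 to 0.13) and that of Cit with any 1 of sgGFP tumours 1 to 4 and sgKeap1 tumours 2 and 3 left out (adjusted p of 0.0532 to 0.13). With sgNrf2, 0 of 59 and 1 of 65 were called, the latter Hmmr, a spindle-associated protein gene, which rose by 1.23 ± 0.19 (adjusted p = 0.0442, 0.000103 to 0.36), lost with any 1 of control tumour B and sgNrf2 tumours A and B left out (adjusted p of 0.0528 to 0.36). Rpa3, higher with sgKeap1, had the lowest estimate of the 59 with sgNrf2, -1.11. It stood at 770 and 1521 in control and 467 and 534 in sgNrf2 tumours. For the 59, limma's unadjusted p was under 0.05 for 12 higher and 4 lower, edgeR called 0, and DESeq2 3 higher and 2 lower. For the 65 the same counts were 20 higher and 1 lower by unadjusted p, 1 higher by edgeR (Hmmr) and 11 higher and 0 lower by DESeq2. With both ligase guides in 1 group, limma called 4 of 59 and 3 of 65 higher and 0 lower, where 4.37% and 3.19% of all genes were called.

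Among the 25 regulators, 3 were called higher with sgCul3, 4 higher and 1 lower with sgKeap1, and 2 higher with sgNrf2. These are 12%, 16%, 4% and 8% of the list, beside 1.35%, 4.45%, 3.37% and 1.9% of all genes. This list, like the others, was chosen with earlier results of these data known. A share above that of all genes is therefore no evidence about the list. Cdkn2a, whose locus makes the cell cycle inhibitor p16 and the p53 activator ARF, here counted together, stood at 4.72, 5.37, 3.54 and 8.95 scaled counts in sgGFP, 155, 38.1 and 41.4 in sgCul3, 51.5, 231 and 165 in sgKeap1, 4.31 and 3.8 in control and 239.8 and 61.2 in sgNrf2 tumours. Controls were near 0 throughout and no edited tumour overlapped them. It rose by 3.13 ± 0.60 (adjusted p = 0.0271, 3.6e-06 to 0.12) with sgCul3, 4.11 ± 0.60 (0.00296, 4.2e-10 to 0.022) with sgKeap1 and 4.60 ± 0.78 (0.0483, 9.6e-06 to 0.26) with sgNrf2, values that depend on the pseudocount at these low control levels. With sgKeap1 that call passed with every single library left out, with sgCul3 it was lost with any 1 of sgGFP tumours 1 to 3 and sgCul3 tumour 1 left out (adjusted p of 0.0504 to 0.12) and with the tumour number as a block, at 0.0556, and with sgNrf2 with any 1 of control tumours A and B and sgNrf2 tumours A and B left out (adjusted p of 0.0549 to 0.26). E2f6, a repressor of the E2F family, rose by 1.24 ± 0.28 with sgCul3 (adjusted p = 0.046, 0.00189 to 0.21), 1.34 ± 0.28 with sgKeap1 (0.0169, 0.000296 to 0.0877) and 1.50 ± 0.23 with sgNrf2 (0.0447, 0.000107 to 0.36). Its call was lost with sgCul3 with any 1 of sgGFP tumours 1 to 4 and sgCul3 tumours 1 and 2 left out (adjusted p of 0.0592 to 0.21) and with the block, at 0.0954, with sgKeap1 with sgKeap1 tumour 3 left out (adjusted p = 0.0877) and with sgNrf2 with any 1 of control tumour B and sgNrf2 tumours A and B left out (adjusted p of 0.0525 to 0.36). E2f8, another repressor of that family, rose by 0.95 ± 0.21 with sgCul3 (adjusted p = 0.0454, 0.0022 to 0.21), lost with any 1 of sgGFP tumours 1 to 4 and sgCul3 tumours 1 to 3 left out (adjusted p of 0.0536 to 0.21) and with the block, at 0.0938. With both ligase guides in 1 group, 4 of 25 regulators were called higher and 0 lower, where 4.37% and 3.19% of all genes were. There E2f8, E2f6 and Cdkn2a kept their calls with every single library left out, in tumours shared with the comparisons of each guide. Fzr1, an activator of the anaphase-promoting complex, fell with sgKeap1 (-1.06 ± 0.26, adjusted p = 0.0352, 0.00742 to 0.13), lost with any 1 of sgGFP tumours 1 to 3 and sgKeap1 tumours 2 and 3 left out (adjusted p of 0.0591 to 0.13).

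The repeats of 2 sgGFP tumours in the second table gave the same order between those tumours for most replication members. Tumour 4 minus tumour 2 in the first table had the same sign as control B minus control A for 21 of 23 replication and 20 of 32 mitosis members, and for 72.9% of the 12905 genes tested in both tables. The median differences were -0.60 and -0.42 for replication and -0.15 and -0.02 for mitosis members, with 19 of 23 replication members lower in tumour 4 in each table. Across genes, which are not independent and here share 1 pair of tumours, Pearson's r was 0.79 over the 23, 0.44 over the 32 and 0.81 over all genes. Mcm6, the ring subunit with the highest level per kilobase, stood at 3303, 2596, 1739 and 1021 in sgGFP, 1789, 1942 and 2438 in sgCul3, 1601, 1230.4 and 1674 in sgKeap1, 5447 and 2267 in control and 6113 and 7211 in sgNrf2 tumours. Tumour 4 was the lowest of all sgGFP tumours for Mcm6, as its repeat, control B, was in the second table. The 2 control tumours thus spanned a wide range for replication members before any guide was compared with them.

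**Figure D5:**
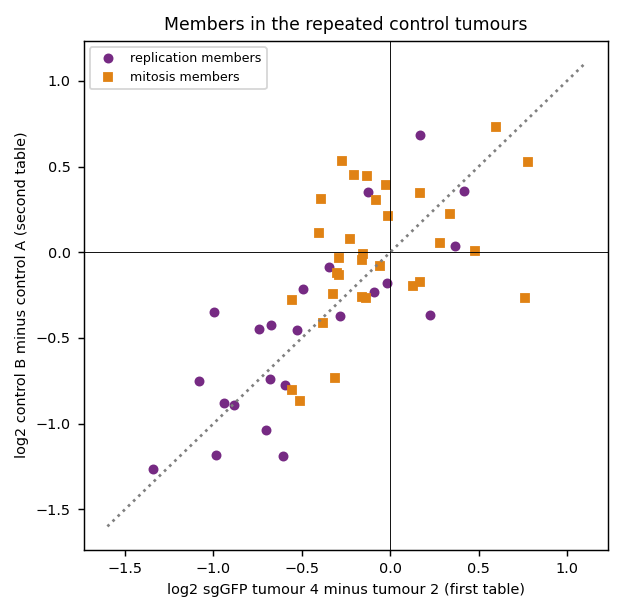
Log2 difference between the same 2 control tumours in each table, sgGFP tumour 4 minus 2 on the horizontal and control B minus A on the vertical axis, 1 point per member. Of 23 replication members, 21 lie in the quadrants of equal sign, and of 32 mitosis members, 20.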

How the data were processed

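RNA-seq (Illumina TruSeq RNA kit, per the labels' protocols) was run on total RNA of 14 tumour libraries. Picard, HTSeq, DESeq and build mm10 are named in the submitters' processing notes, with no version. The 2 deposited tables hold a scaled signal, gene counts divided by a size factor per library, per the labels and the values: within a tolerance of 0.1 reads, 100% of values were whole reads in every library, and the first table has 1 added to every entry. Entries that name no gene, 4 in the second table, were left out: reads aligned to more than 1 place took 45% to 58.0% of all entries, unaligned reads 3.34% to 3.84%, reads on no gene 3.39% to 4.58% and ambiguous reads 0.388% to 0.638%. Depth was 6333025 to 12008223 and 17819333 to 20848578 reads on genes, and 3 reads equal 0.144 to 0.474 CPM.

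Values were tested with limma 3.58.1 (R 4.3.3) on log2(value + 1), genes with a mean of at least 10, trend on, all groups of a table in 1 fit, two-sided, Benjamini-Hochberg over 13045 and 13989 genes. A fold change on that scale understates the change of low genes. Recovered reads went to edgeR 4.0.16 and DESeq2 1.42.0 as alternatives, beside another pseudocount (5), no filter, a mean of at least 50, equal totals, quantile normalization, a block, only the 2 groups compared and each library left out. The code was tested on simulated data. Members and lists were chosen with earlier results of these data known. Values in every tumour were given for 10 fixed members and, per comparison, the 5 replication and 5 mitosis members with the smallest adjusted p, and from other lists up to 3 genes per comparison. Mcm6, Cenpa and other members are given more briefly.

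Same-numbered sgGFP and sgCul3 tumours deviated together (r = 0.164, 0.175 and 0.314), so blocked values stand beside those sgCul3 calls that the block ended. The pairing comes from these values, not from the labels, and the block drops sgGFP tumour 4. Same-numbered sgGFP and sgKeap1 tumours did so less evenly (0.199, 0.0425 and -0.0941). Those of sgCul3 and sgKeap1 had r = 0.239, 0.518 and 0.098. The number may thus pair sgKeap1 tumours too, and with the block no member was called in sgKeap1 against sgCul3.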

Additional observations from a re-analysis of the deposited data

Results flagged for a closer look

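E2f1 was high in 1 of the 4 sgGFP tumours, tumour 1, whose gap to the next took 0.861 of the group's range, and E2f2 in the same tumour, with 0.848. Both shares pass Dixon's critical value for 4 samples, which chance passes in about 1 of 20 groups. All 55 members were screened in this way, so some passes are to be looked for by chance alone. For E2f2 the whole range was narrow, as the values given above show.

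As scaled by the submitters, several members lay on opposite sides of their controls, without overlap, with sgNrf2 and with a ligase guide. They were picked by that rule. With sgNrf2, 33.3% of all genes lay above and 30.7% below both controls. The side of Cdk1 and Mad2l1 with sgNrf2 rested on the scaling, as given above. The differences of the log2 fold changes, sgNrf2 minus the ligase guide, were not tested, since the tables were scaled apart and control A and B repeat sgGFP tumours. Against sgCul3 they were -1.06 for Cdk1, -0.87 for Mad2l1 and -1.03 for Cenpa, all lower with sgNrf2. Against sgKeap1 they were -1.21 for Gins1, -0.64 for Cdk1 and -0.91 for Mad2l1, lower with sgNrf2, and 1.67 for Mki67 and 1.95 for Ccnf, higher with sgNrf2.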

How the results depend on the processing

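The number of members called rested on the setting in 4 of the 5 comparisons, and the estimate of no called member changed sign. With sgCul3, 2 higher became 0 with no filter, a mean of at least 50, equal totals, edgeR, the replicate block or only the 2 groups compared, 1 with quantile normalization, 4 with DESeq2 and 0 to 1 with each library left out. With sgKeap1, 1 higher became 0 with no filter, equal totals, quantile normalization, the replicate block or only the 2 groups compared, 2 with edgeR, 3 with DESeq2 and 0 to 4 with a library left out. Its 3 lower became 1 with equal totals, 2 with only the 2 groups compared, 5 with DESeq2, 5 with the replicate block and 0 to 4 with a library left out. With both guides, 3 higher became 0 with equal totals or the replicate block, 1 with quantile normalization, 8 with DESeq2 and 0 to 7 with a library left out, and 1 lower became 0 with equal totals, 2 with DESeq2 or the replicate block and 0 to 1 with a library left out. With sgNrf2, 0 higher became 9 with equal totals, 9 with DESeq2 and 0 to 16 with a library left out, and 0 lower became 0 to 1. In sgKeap1 against sgCul3 no setting called a member. By the labels the tumours share only a number. Same-numbered tumours deviated together in sgGFP with sgCul3 and in sgCul3 with sgKeap1. Yet sgKeap1 tumour 3 correlated better with sgCul3 tumour 1 (r = 0.264) than with sgCul3 tumour 3 (0.098). With the block 0 members were called with sgNrf2, where same-lettered tumours had r = -0.000641. The causes of these changes were not tested.

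Over all genes, DESeq2 called 479 higher and 447 lower with sgCul3 (limma 176 and 111), 1181 and 962 with sgKeap1 (581 and 439), 1105 and 947 with both guides (570 and 416), 64 and 40 in sgKeap1 against sgCul3 (4 and 4), and 1191 and 1460 with sgNrf2 (266 and 351). The block gave 975 and 803 with sgKeap1. A mean of at least 50 gave 115 and 47 with sgCul3, and only the 2 groups compared 92 and 64. Leaving out control A raised the sgNrf2 counts to 1739 and 1644, and leaving out sgNrf2 tumour A left 1 and 2. Depth limited no member to counts near 0, and the number of tumours, 2 to 4 a group, sets the width of the errors.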
